A study of Bos taurus with 20 samples.

Results

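The amino acid transporters described here are the protein-coding genes of 7 solute carrier families, SLC1, SLC3, SLC6, SLC7, SLC36, SLC38 and SLC43, found by their symbols in a table of gene expression in day 14 bovine (Bos taurus) embryos. Of 15542 genes in the table, 42 belonged to these families, and 27 of the 42 had 10 or more reads in 2 or more of the 20 libraries and could be tested. The study recovered embryos from the uterus on day 14 and sequenced RNA either from the whole embryo or from the isolated trophectoderm (TE), the outer epithelium that attaches to the uterus and forms the fetal part of the placenta. Embryos were either fresh, meaning not vitrified, or vitrified, meaning cooled rapidly into a glass-like solid for storage. The groups were fresh TE (n = 5), vitrified TE (n = 7), fresh whole embryo (n = 6) and vitrified whole embryo (n = 2). The labels name all 20 samples as embryonic cells and name no genotype, sire or breed. They do not say which samples came from one embryo, nor whether a sample holds 1 embryo or a pool, so the p-values below measure the spread between these samples, which may in part be technical.

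An elongating ruminant embryo floats free in the uterus and takes its amino acids from the uterine fluid, mostly across the trophectoderm. Amino acids enter cells through carriers with different partners and driving forces. Members of SLC1 and SLC38 use the sodium gradient to concentrate glutamate, glutamine and small neutral amino acids, SLC6 members carry amino acids and related molecules such as creatine, taurine and proline with sodium and chloride, and SLC36 members move small amino acids with protons. The SLC3 proteins are heavy chains that bring SLC7 light chains to the cell surface, where the light chains exchange one amino acid for another, and SLC43 members let large neutral amino acids pass down their gradient.

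The values are RPKM, which divide a gene's reads by its length and by the reads of the library, after a constant of 0.01 had been subtracted. The constant, and a gene length that is the whole span with introns, were inferred from the values and are not given by the labels. Because of that length, RPKM is compared between samples, for 1 gene or for the sum of 1 marker list, and levels are not ranked between genes. Such a sum depends on gene length, may rest mostly on 1 gene and is not an amount of a cell type. Where read totals of different genes are set side by side, they are numbers of reads and not levels of expression. Libraries held 6.01 to 14.5 M reads. The share of a library's reads that fell in listed genes was 33.8 to 40.3% in fresh TE and 57.5 to 63.9% in the other 15 samples, so the deposited scale places most genes lower in fresh TE. In the deposited RPKM the median gene's mean was 2.45-fold higher in vitrified than in fresh TE and 2.18-fold higher in fresh whole embryos than in fresh TE, against 1.30-fold between vitrified and fresh whole embryos. Scaled to the reads in listed genes those medians were 1.58-, 1.39- and 1.25-fold, and after median-ratio scaling they were 1.13-, 1.10- and 1.03-fold. Many results on fresh TE are therefore also given under other scalings. Fresh TE 1 and 2 were close to each other in counts over all genes (chi-square per degree of freedom 1.88), as were fresh TE 3 and 4 (1.48), whereas every other pair within a group reached at least 6.89. Both pairs exceeded pure sampling noise, and all 5 libraries were kept.

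All 10 trophectoderm markers examined had 10 or more reads in a library of each group, but their levels moved between the groups. KRT8, a keratin, was 141 to 183 RPKM in fresh TE, 688 to 976 in vitrified TE, 335 to 514 in fresh whole embryos, and between 855 and 1060 in the vitrified whole embryos. PAG2, a pregnancy-associated glycoprotein, was 39.6 to 79.6 in fresh TE, 0.833 to 3.35 in vitrified TE, 0.346 to 1.27 in fresh whole embryos, and 2.42 to 5.85 in the vitrified whole embryos. Epiblast markers, which mark the cells that form the fetus, summed to 0.0322 to 0.218 RPKM in fresh TE, 0.991 to 2.18 in vitrified TE, 1.62 to 9.41 in fresh whole embryos, and 0.727 and 28.8 in the vitrified whole embryos. No epiblast marker reached 10 reads in a fresh TE library, and 3 of the 6 measured did so in vitrified TE. Hypoblast markers, nearly all of the sum from APOA1, summed to 150 to 322 RPKM in fresh TE, 588 to 1251 in vitrified TE, 561 to 989 in fresh whole embryos, and 690 and 200 in the vitrified whole embryos. The 4 blood and immune markers measured summed to 9.57 to 15.5 RPKM in fresh TE, of which AIF1 gave 8.83 to 15.3. They summed to 2.99 to 6.49 in the other groups, where AIF1 was 0.341 to 1.85. The higher sum in fresh TE came from AIF1 alone, and CD68 and HBA went the other way. CD68 was at most 0.563 RPKM in fresh TE and at least 0.690 in the other groups. HBA was at most 0.217 in fresh TE and at least 0.829 in the other groups, and LYZ overlapped between fresh TE and the others. The 4 endometrium markers measured summed to 1.0 to 5.33 over all samples. The part of these markers in the transporter differences was not tested. In these bulk samples, fewer cells of a type and less RNA per cell cannot be told apart.

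The 27 tested genes were 4 of 4 SLC1 genes, 2 of 2 SLC3, 6 of 11 SLC7, 2 of 2 SLC43, 7 of 8 SLC38, 1 of 3 SLC36 and 5 of 12 SLC6. Among the 15 others were SLC6A2, SLC6A4, SLC6A7, SLC6A12, SLC6A14, SLC6A17, SLC7A1, SLC7A2, SLC7A9, SLC7A10, SLC7A14, SLC36A1, SLC36A4 and SLC38A3, each with 5 to 96 reads over all libraries and at most 11 in any one. SLC7A1 and SLC7A2, cationic amino acid transporters that carry arginine, had 21 reads each over the 20 libraries. Of the tested genes, 13 had 10 reads in every library. Another 7, SLC6A6, SLC6A8, SLC6A15, SLC6A20, SLC7A3, SLC36A2 and SLC38A10, had no fresh TE library with 10 reads and entered the test through other groups, so their low place in fresh TE was fixed in part by the filter.

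Transporter reads were dominated by 1 gene. SLC7A4, a relative of the cationic amino acid transporters whose own transport activity is not settled, held 69089 of 167351 transporter reads, or 41.3%. Its share of a library's transporter reads was 40.9 to 64.6% in fresh TE, 40.8 to 48.8% in vitrified TE, 28.8 to 34.5% in fresh whole embryos, and 38.1 and 46.4% in the vitrified whole embryos. Of each M reads in listed genes, the 42 transporters took 973 to 1467 in fresh TE samples, 1969 to 2779 in vitrified TE, 1310 to 1729 in fresh whole embryos, and 1832 and 1556 in the vitrified whole embryos. Without SLC7A4 the totals were 440 to 586, 1064 to 1533, 932 to 1133, and 1134 and 835. On this scale every vitrified TE sample lay above every fresh TE sample, with and without SLC7A4, and fresh whole embryos lay above fresh TE without SLC7A4 but overlapped it with SLC7A4 included.

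**Figure D1:**
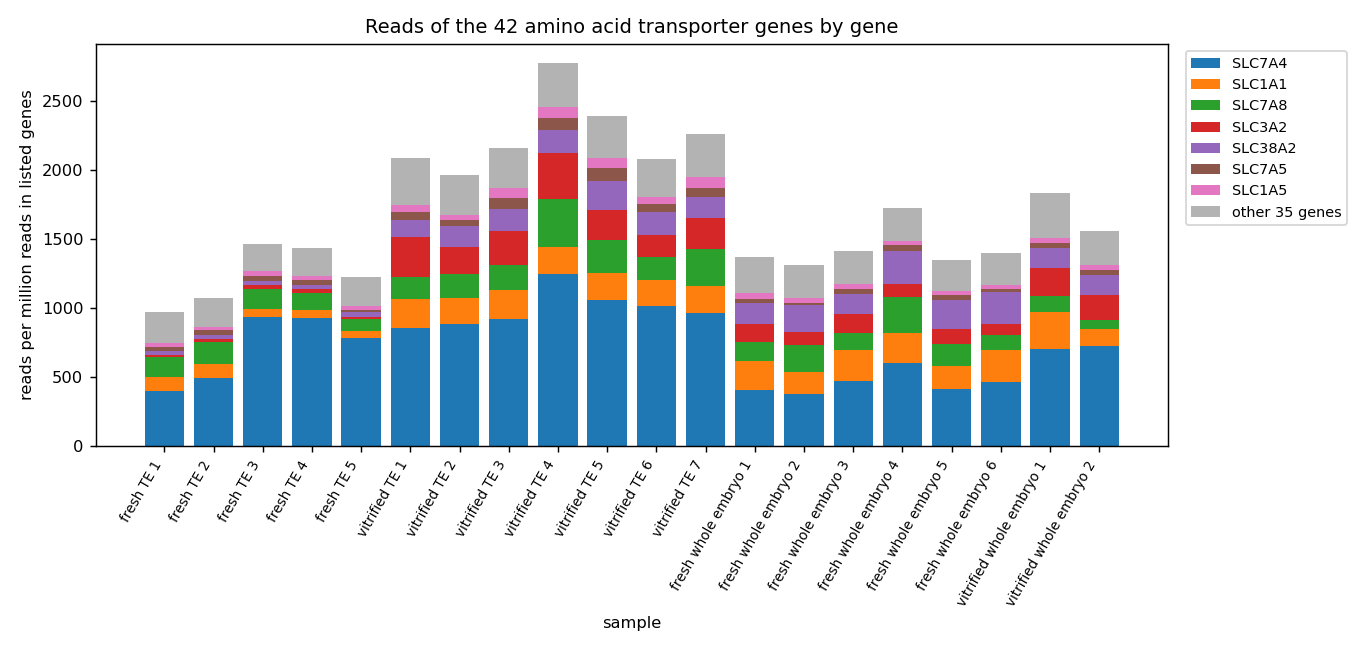
Stacked bars of the reads of the 42 transporter genes per M reads in listed genes (y axis) for each of the 20 samples (x axis), with the 7 genes that have the most reads in colour and the other 35 in grey. SLC7A4 is the largest segment in each bar, and the 7 vitrified TE bars, at 1969 to 2779, are the tallest.

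Vitrified TE was compared with fresh TE to ask how vitrification changed the trophectoderm. The glutamine and alanine carrier SLC38A2, the heavy chain SLC3A2, the glutamate carrier SLC1A1, the glutamine exchanger SLC1A5, the leucine exchanger light chain SLC7A5, the creatine carrier SLC6A8 and the proline carrier SLC6A20 were all higher in vitrified TE. Of the 27 tested genes, 20 were higher and 0 lower at a limma adjusted p under 0.05, which is called a change below. Over all 10599 genes tested, 69% were higher and 6.66% lower, so the share of transporters called higher was near that of genes at large. The median difference was 0.28 log2 units over the 27 transporters and 0.18 over all genes. On 3 other scales the count of transporters fell to 16 higher and 2 lower with listed-gene scaling, 14 and 3 after median-ratio scaling, and 10 and 8 after quantile normalization, against 49.4% and 15.7%, 35.1% and 27.5%, and 26.2% and 38.7% of all genes. Higher under all 4 scales were 9 transporters, SLC1A1, SLC1A5, SLC3A2, SLC6A8, SLC6A20, SLC7A5, SLC38A2, SLC38A10 and SLC38A11, where 25.4% of all genes were, and none was lower under all 4 scales (6.66% of all genes). Of the 9, SLC6A8, SLC6A20 and SLC38A10 entered the test through groups other than fresh TE, so the filter fixed their direction in part.

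Fresh whole embryos were compared with fresh TE to ask how the transporters of the whole embryo differ from those of its outer layer. Here 20 of the 27 were higher and 1, the light chain SLC7A6, was lower, against 60% and 5.97% of all genes. With listed-gene scaling the counts were 12 and 3, after median-ratio scaling 11 and 4, and after quantile normalization 9 and 6, where 39.7% and 16%, 29.9% and 25.2%, and 23.6% and 34.7% of all genes were higher and lower. Higher under all 4 scales were SLC1A1, SLC3A2, SLC6A8, SLC6A20, SLC7A3, SLC38A2, SLC38A5, SLC38A6 and SLC38A11 (9 of 27, with 23.3% of all genes), and SLC7A6 was lower under all 4 (5.96% of all genes). Of the 9, SLC6A8, SLC6A20 and SLC7A3 entered the test through groups other than fresh TE. Of the 20 higher in deposited RPKM, SLC6A15 passed the filter through fresh whole embryos alone, so the filter fixed its direction in part. This comparison and the previous one share the 5 fresh TE samples, so genes low in those samples enter both.

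Whole embryos differed less with vitrification. Of the 27 genes, 4 were higher in vitrified whole embryos (SLC6A20, SLC38A7, SLC3A2 and SLC36A2) and 2 were lower (SLC1A3 and SLC3A1), against 26.9% and 3.94% of all genes. With listed-gene scaling 3 were higher and 1 lower (21% and 4.31% of all genes), after median-ratio scaling 1 and 3 (10.6% and 6.99%), and after quantile normalization 2 and 2 (8.68% and 6.14%). Under all 4 scales SLC6A20 was higher and SLC1A3 lower, where 7.87% and 3.11% of all genes were. The group held 2 samples, and calls changed when either was left out, among transporters and among all genes. The median difference over the 27 transporters was 0.0013 without vitrified whole embryo 1 and 0.032 without 2. Over all genes it was 0.072 and 0.036. Between vitrified whole embryo and vitrified TE, SLC6A20 and SLC38A6 were higher and SLC1A5, SLC7A8 and SLC43A2 lower, against 15.3% and 3.59% of all genes. The counts were 0 and 3 with listed-gene scaling (8.47% and 3.33%), 0 and 3 after median-ratio scaling (3.24% and 2.68%) and 0 and 2 after quantile normalization (2.59% and 2.07%). Under all 4 scales no transporter was higher and SLC1A5 and SLC43A2 were lower, where 2.42% and 1.78% of all genes were. Without vitrified whole embryo 2 fewer genes were called, among transporters and among all genes. The median difference was then -0.012 over the transporters and 0.0089 over all genes.

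The vitrification effect itself was compared between the sample kinds by an interaction term, the effect in whole embryos minus that in TE. It was called negative for 15 of the 27 transporters and called positive for 0, against 28.4% and 3.98% of all genes. With listed-gene scaling the counts were 8 negative and 1 positive, after median-ratio scaling 7 and 1, and after quantile normalization 6 and 1, against 16.5% and 9.22%, 13.1% and 14%, and 11.3% and 19.5% of all genes. Called negative under all 4 scales were 6, SLC1A1, SLC1A5, SLC3A2, SLC6A8, SLC38A2 and SLC38A11 (10.7% of all genes), and 0 were called positive under all 4 (3.72%). Of the 6, SLC6A8 entered the test through groups other than fresh TE. Calls among the transporters changed when either vitrified whole embryo was left out. The median of the term was -0.23 over the transporters and -0.059 over all genes without vitrified whole embryo 1, and -0.21 and -0.12 without 2. The term contains the fresh TE samples and is not independent of the comparisons above.

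**Figure D2:**
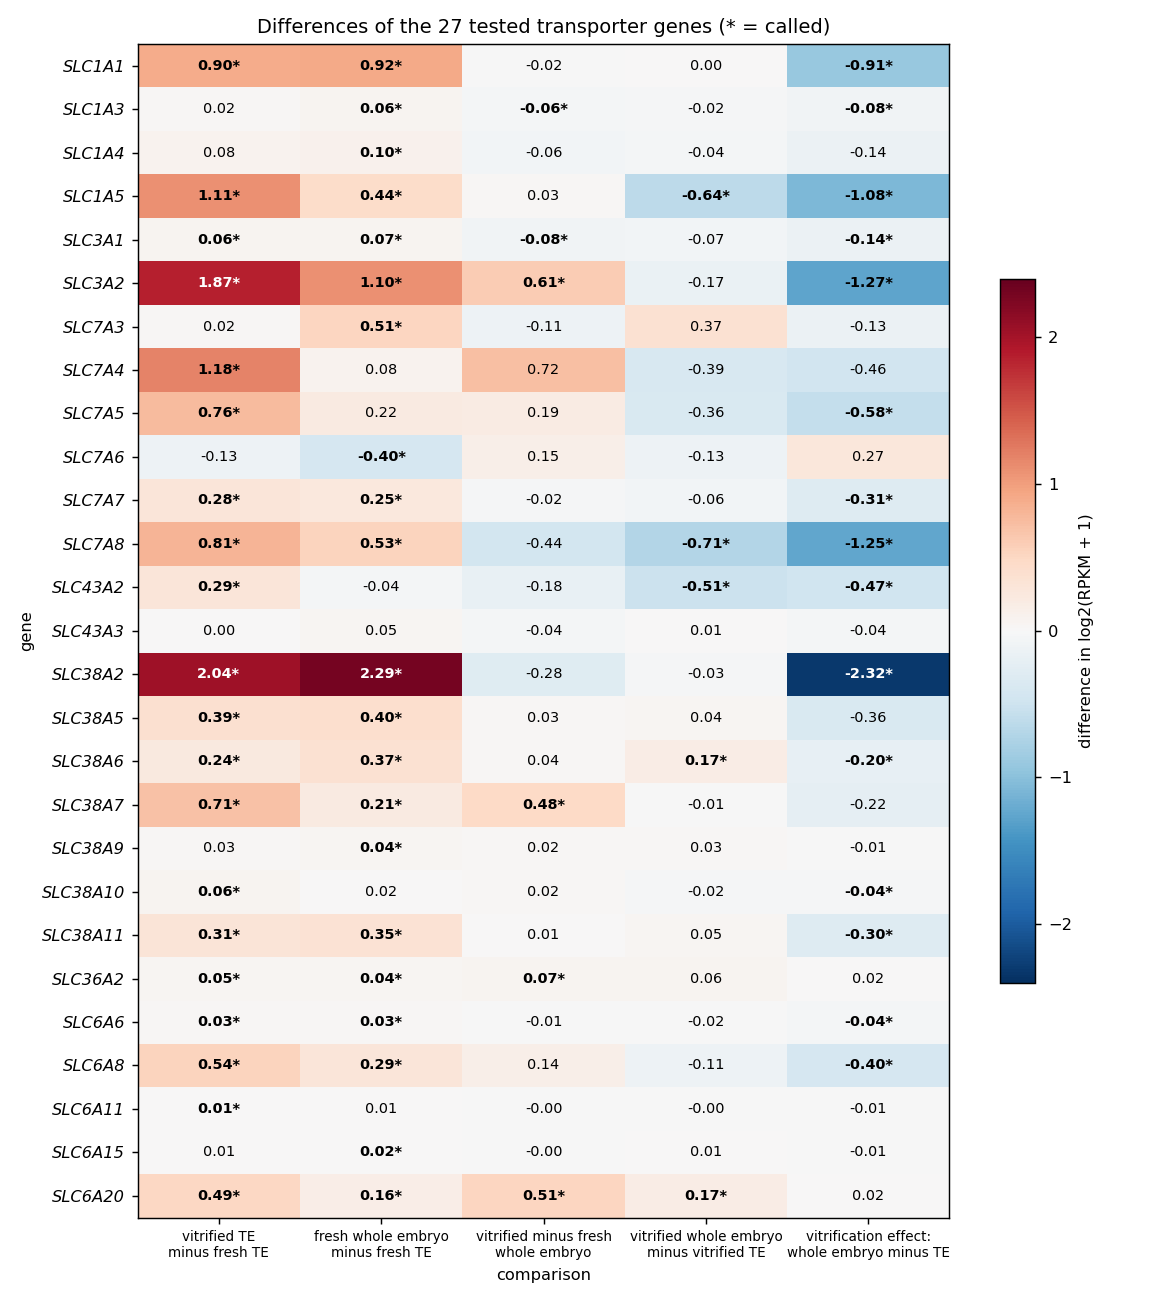
Differences in log2(RPKM + 1) for the 27 tested transporter genes (rows, by family) in 5 comparisons (columns), coloured from blue for lower to red for higher, with an asterisk where the limma adjusted p is under 0.05. On this scale, which makes differences of low genes small, SLC38A2 has the largest differences, 2.04 and 2.29 in the comparisons with fresh TE. The column of whole embryos has few marked cells, 4 higher and 2 lower.

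Among the heavy chains, SLC3A2 (4F2hc), the partner of several light chains including SLC7A5, SLC7A6, SLC7A7 and SLC7A8, lies on chromosome 29 at 41855871 to 41896761 (UMD3.1). Its RPKM was 0.131, 0.155, 0.274, 0.252 and 0.164 in fresh TE and 2.30 to 4.77 with a median of 3.19 in vitrified TE. In fresh whole embryos it was 1.22 to 2.08 with a median of 1.47, and in the vitrified whole embryos 3.0 and 2.79. The 4 groups kept apart except that both vitrified whole embryos fell within the vitrified TE range. The mean was 17.6-fold higher in vitrified than in fresh TE in deposited RPKM and 8.19-fold higher after median-ratio scaling (difference 1.87 ± 0.11 SE in log2(RPKM + 1), limma adjusted p = 7.81e-11). It was 8.07-fold higher in fresh whole embryos than in fresh TE (limma adjusted p = 2.24e-07). In whole embryos it was 1.84-fold higher after vitrification (0.61 ± 0.16 SE, limma adjusted p = 0.00764), a call that did not pass after median-ratio scaling (adjusted p = 0.126), nor without vitrified whole embryo 1 (0.57, adjusted p = 0.0571) or 2 (0.65, adjusted p = 0.0621). The difference of the vitrification effects was -1.27 ± 0.20 SE (limma adjusted p = 0.000114).

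SLC3A1 (rBAT), the heavy chain of the cystine and dibasic amino acid transporter, was much nearer the detection limit, with 527 reads over the 20 libraries. Its RPKM was 0.0675, 0.0744, 0.0493, 0.0450 and 0.0578 in fresh TE, 0.0710 to 0.146 with a median of 0.104 in vitrified TE, 0.0664 to 0.158 with a median of 0.108 in fresh whole embryos, and 0.0318 and 0.0665 in the vitrified whole embryos. Both vitrified whole embryos lay below all vitrified TE samples, and the TE groups overlapped. SLC3A1 was called 1.75-fold higher in vitrified than in fresh TE (limma adjusted p = 0.0167), but the difference turned negative after median-ratio scaling (-0.027) and quantile normalization (-0.081). In whole embryos it was 2.28-fold lower after vitrification (limma adjusted p = 0.0362), and the call was lost without vitrified sample 1 (-0.059, adjusted p = 0.274) or 2 (-0.11, adjusted p = 0.0821) and without fresh whole embryo 2, 4 or 5 (-0.071, -0.073 and -0.078, adjusted p = 0.0596 to 0.0620). Its light chain partner SLC7A9 was among the genes with too few reads, with 22.

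SLC7A5 (LAT1), the light chain that brings in leucine and other large neutral amino acids in exchange for glutamine, had RPKM of 0.345, 0.377, 0.468, 0.529 and 0.221 in fresh TE. In vitrified TE it was 0.874 to 1.91 with a median of 1.32, in fresh whole embryos 0.330 to 0.773 with a median of 0.691, and in the vitrified whole embryos 0.851 and 0.817. Vitrified TE lay above all fresh TE and fresh whole embryo samples. The mean was 3.55-fold higher in vitrified than in fresh TE (0.76 ± 0.10 SE, limma adjusted p = 2.56e-06) and 1.65-fold higher after median-ratio scaling (adjusted p = 0.0109). Fresh whole embryo and fresh TE overlapped, and their difference was not called (0.22, limma adjusted p = 0.0827). It was called with limma-voom (adjusted p = 0.0295), in a fit of those groups alone (0.0410), with a pseudocount of 0.1 (0.0339) and without fresh whole embryo 2 (0.27, adjusted p = 0.0324). It shrank to 0.011 with listed-gene scaling (adjusted p = 0.955), and it was -0.12 after median-ratio scaling and -0.16 after quantile normalization (adjusted p = 0.380 and 0.210).

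The reads of SLC7A5 and SLC3A2 were also set against each other within each library, a ratio on which library scaling has no bearing. SLC7A5 had 0.956 to 1.87 reads per SLC3A2 read in fresh TE, 0.190 to 0.430 in vitrified TE, 0.177 to 0.417 in fresh whole embryos, and 0.202 and 0.209 in the vitrified whole embryos. All 5 fresh TE samples stood above all 15 others. The ratio was 4.99-fold higher in fresh than in vitrified TE (difference in mean log2 ratio -2.32, exact two-sided permutation p = 0.00126, the smallest possible with all 5 fresh TE libraries, near-identical pairs included, taken as separate samples). It was 5.16-fold higher in fresh TE than in fresh whole embryos (-2.37, exact two-sided permutation p = 0.00216, also the smallest possible), and both had an adjusted p of 0.00433 over the 4 ratio tests run by exact permutation. The ratio of SLC1A5 to SLC7A5, the genes of a glutamine importer and of the exchanger that returns glutamine, did not separate the groups: it was 0.805 to 1.60 in fresh TE, 0.780 to 1.23 in vitrified TE, 0.862 to 1.81 in fresh whole embryos, and 0.809 and 0.831 in the vitrified whole embryos. The differences in mean log2 ratio from fresh TE were -0.10 for vitrified TE and 0.12 for fresh whole embryos (exact two-sided permutation p = 0.615 and 0.643, both 0.643 adjusted).

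**Figure D3:**
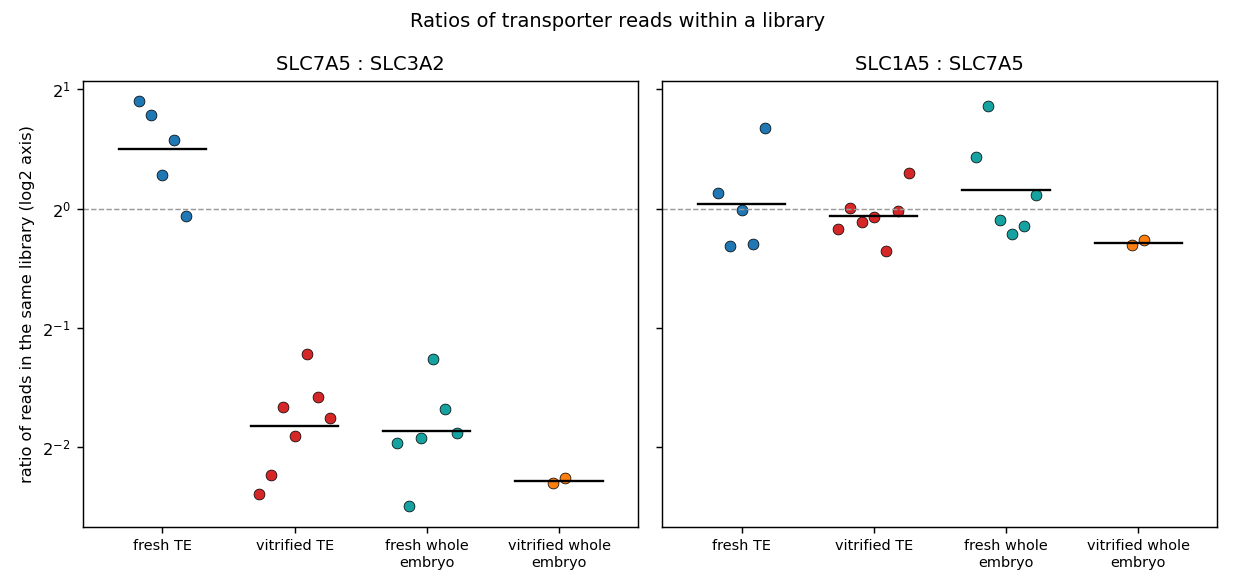
Ratio of reads of SLC7A5 to SLC3A2 (left) and of SLC1A5 to SLC7A5 (right) within each library (points, log2 axis) for the 4 groups (x axis), with bars at the mean of the log2 ratios. The 5 fresh TE points of the left panel, 0.956 to 1.87, stand above all others, and the points of the right panel overlap between groups.

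SLC7A8 (LAT2), a light chain that exchanges small and large neutral amino acids, had RPKM of 0.993, 1.06, 1.09, 0.943 and 0.665 in fresh TE, 1.76 to 3.93 with a median of 2.07 in vitrified TE, 1.23 to 2.91 with a median of 1.76 in fresh whole embryos, and 1.37 and 0.823 in the vitrified whole embryos. Vitrified TE and fresh whole embryos lay above all fresh TE samples, and both vitrified whole embryos lay below all vitrified TE samples. SLC7A8 was 2.60-fold higher in vitrified than in fresh TE (0.81 ± 0.15 SE, limma adjusted p = 7.87e-05), a difference that was 1.21-fold and no longer called after median-ratio scaling (adjusted p = 0.410). It was 2.26-fold higher in vitrified TE than in vitrified whole embryos (limma adjusted p = 0.0227), and without vitrified whole embryo 2 that call was lost (-0.52, adjusted p = 0.260), as it was after quantile normalization (adjusted p = 0.0571) and in a fit of those groups alone (0.0698). Fresh whole embryos were 1.97-fold above fresh TE (limma adjusted p = 0.00510), with the sign turned after median-ratio scaling (-0.019) and quantile normalization (-0.050). The difference of the vitrification effects was -1.25 ± 0.26 SE (limma adjusted p = 0.00122), and its adjusted p was 0.0557 after median-ratio scaling.

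SLC7A6 (y+LAT2), a light chain that exports arginine and lysine in exchange for neutral amino acids, was the 1 transporter lower in fresh whole embryos than in fresh TE. Its RPKM was 0.765, 0.694, 0.655, 0.694 and 0.940 in fresh TE and 0.387 to 0.723 with a median of 0.654 in vitrified TE. In fresh whole embryos it was 0.267, 0.317, 0.285, 0.482, 0.297 and 0.294, and in the vitrified whole embryos 0.599 and 0.342. All 5 fresh TE samples lay above all 6 fresh whole embryos, which 2.94% of all genes did. The mean was 2.32-fold higher in fresh TE than in fresh whole embryos (-0.40 ± 0.07 SE, limma adjusted p = 3.12e-05), and the difference was -0.94, -0.85 and -0.90 on the other 3 scales. Against vitrified TE, fresh TE overlapped and the deposited scale gave no call (-0.13, limma adjusted p = 0.0814), whereas the other scales gave differences of -0.55, -0.64 and -0.72 with adjusted p from 3.44e-05 to 3.44e-08.

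SLC7A7 (y+LAT1), the near relative of SLC7A6 with the same exchange, was 0.420 to 0.680 RPKM in fresh TE (0.587, 0.440, 0.494, 0.420 and 0.680 by sample), 0.779 to 0.934 with a median of 0.827 in vitrified TE, 0.702 to 0.904 with a median of 0.817 in fresh whole embryos, and 0.807 and 0.746 in the vitrified whole embryos. Fresh TE lay below all others in deposited RPKM. Vitrified TE was 1.63-fold higher than fresh TE (0.28 ± 0.05 SE, limma adjusted p = 5.21e-05), and the direction turned after median-ratio scaling (-0.18, adjusted p = 0.00787) and quantile normalization (-0.27, adjusted p = 0.000390). The median gene was 2.45-fold higher. Between fresh whole embryo and fresh TE SLC7A7, unlike SLC7A6, was 1.54-fold higher in deposited RPKM (limma adjusted p = 0.000386), but the difference was -0.0078 with listed-gene scaling, -0.16 after median-ratio scaling (adjusted p = 0.0248) and -0.20 after quantile normalization (adjusted p = 0.00674).

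SLC7A4 lies on chromosome 17 at 74366170 to 74369087 (UMD3.1). Its RPKM was 49.8, 56.7, 126, 128 and 107 in fresh TE, 169 to 251 with a median of 191 in vitrified TE, 74.3 to 118 with a median of 90.5 in fresh whole embryos, and 145 and 158 in the vitrified whole embryos. Fresh TE samples 1 and 2, at 49.8 and 56.7, were the lowest of all 20, and all vitrified TE samples lay above all samples of the other groups. The mean was 2.13-fold higher in vitrified than in fresh TE (1.18 ± 0.21 SE, limma adjusted p = 4.54e-05), but 0.997-fold after median-ratio scaling (adjusted p = 0.762). Fresh whole embryo and fresh TE did not differ beyond their spread in deposited RPKM (0.08, limma adjusted p = 0.757), and SLC7A4 was lower in fresh whole embryos on each of the other 3 scales (-0.57, -0.89 and -0.75) and in deposited RPKM without fresh TE 1 and 2 (-0.39, adjusted p = 0.0301). Vitrified whole embryos lay above all fresh whole embryos, a 1.64-fold difference that did not pass (limma adjusted p = 0.0659). It was called without fresh whole embryo 4 (0.79, adjusted p = 0.0488), after quantile normalization (0.88, adjusted p = 0.0184), with limma-voom (adjusted p = 0.0381), in a fit of those groups alone (0.0336) and with the near-identical libraries averaged (0.0389).

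SLC7A3 (CAT3), a cationic amino acid transporter for arginine and lysine, varied widely within groups. Its RPKM in the fresh whole embryos was 0.315, 0.466, 0.943, 0.993, 0.245 and 0.108, and in the vitrified whole embryos it was 0 and 0.859. It was 0, 0, 0.0700, 0.126 and 0 in fresh TE, and in vitrified TE it was 0.370 in sample 5 and at most 0.0214 in the other 6, of which 4 were at 0. Fresh whole embryos were higher than fresh TE (0.51 ± 0.15 SE, limma adjusted p = 0.00692) and remained so on the other 3 scales. The vitrified whole embryo with 0.859 RPKM was the one with the epiblast marker sum of 28.8, and the one with no SLC7A3 read had a sum of 0.727. In the fresh whole embryos the epiblast sums were, in the same order, 3.45, 2.71, 9.41, 3.45, 1.73 and 1.62, and vitrified TE 5 had the highest sum of its group, 2.18. The part of epiblast content in these values was not tested.

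SLC43A2 (LAT4), which lets leucine, phenylalanine and related amino acids out of epithelial cells, had RPKM of 0.345, 0.325, 0.478, 0.561 and 0.227 in fresh TE, 0.391 to 1.10 with a median of 0.734 in vitrified TE, 0.276 to 0.452 with a median of 0.335 in fresh whole embryos, and 0.262 and 0.119 in the vitrified whole embryos. Both vitrified whole embryos were below every fresh whole embryo and every vitrified TE sample, and the TE groups overlapped. SLC43A2 was 3.73-fold higher in vitrified TE than in vitrified whole embryos (-0.51 ± 0.12 SE for whole embryo minus TE, limma adjusted p = 0.00953), and the call was lost without vitrified whole embryo 2 (-0.42, adjusted p = 0.144) and in a fit of those groups alone (adjusted p = 0.0597). Against fresh TE it was 1.83-fold higher in vitrified TE (0.29, limma adjusted p = 0.00544), with the sign turned after median-ratio scaling (-0.090) and quantile normalization (-0.18). SLC43A3, a purine nucleobase transporter placed in this family by sequence, was 0.0639 to 0.179 RPKM in fresh whole embryos and 0.0398 to 0.138 in the others. No comparison called it in deposited RPKM (0.00 for vitrified minus fresh TE, limma adjusted p = 0.921), and it was lower in vitrified TE on the other 3 scales (-0.089, -0.10 and -0.16).

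The SLC1 family carries glutamate and neutral amino acids. SLC1A1 (EAAT3), a glutamate and cysteine carrier, had RPKM of 0.488, 0.451, 0.328, 0.317 and 0.277 in fresh TE, 1.44 to 1.67 with a median of 1.53 in vitrified TE, 1.21 to 1.87 with a median of 1.68 in fresh whole embryos, and 2.20 and 1.05 in the vitrified whole embryos. Fresh TE lay below all others, and vitrified TE varied little (SD 0.0855 around a mean of 1.55, n = 7). The mean was 4.16-fold higher in vitrified than in fresh TE (0.90 ± 0.09 SE, limma adjusted p = 5.4e-08) and 1.91-fold higher after median-ratio scaling. The fresh whole embryo mean was 4.30-fold that of fresh TE (limma adjusted p = 1.2e-07). The vitrified whole embryos straddled the fresh ones (limma adjusted p = 0.932), and the difference of the vitrification effects was -0.91 ± 0.16 SE (limma adjusted p = 0.000258), or -0.59 without vitrified whole embryo 2 (adjusted p = 0.00629).

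SLC1A5 (ASCT2), which takes up glutamine by exchange, had RPKM of 0.954, 0.765, 1.17, 1.08 and 0.893 in fresh TE and 2.44, 2.21, 3.71, 4.27, 3.76, 2.68 and 4.10 in vitrified TE. Fresh whole embryos had 1.26 to 2.32 with a median of 1.64, and the vitrified whole embryos 1.74 and 1.71. Vitrified TE lay above fresh TE and above both vitrified whole embryos. The mean was 3.40-fold higher in vitrified than in fresh TE (1.11 ± 0.12 SE, limma adjusted p = 2.01e-07) and 1.58-fold higher after median-ratio scaling. It was 1.92-fold higher in vitrified TE than in vitrified whole embryos (-0.64 ± 0.17 SE, limma adjusted p = 0.0172), a call that held on the other 3 scales but not without vitrified whole embryo 1 (-0.64, adjusted p = 0.0670) or 2 (-0.63, adjusted p = 0.138). Fresh whole embryos were 1.74-fold above fresh TE (limma adjusted p = 0.00528), with the sign turned after median-ratio scaling (-0.11) and quantile normalization (-0.15).

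SLC1A3 (EAAT1), a glutamate and aspartate carrier, had 708 reads over the 20 libraries. Its RPKM was 0.0252, 0.00999, 0.0321, 0.0462 and 0.0251 in fresh TE, 0.0217 to 0.0568 with a median of 0.0439 in vitrified TE, 0.0443 to 0.0848 with a median of 0.0769 in fresh whole embryos, and 0.0484 and 0.0107 in the vitrified whole embryos. It was 2.36-fold lower in vitrified than in fresh whole embryos (limma adjusted p = 0.0171), and without vitrified whole embryo 2 the call was lost (-0.029, adjusted p = 0.403), as it was in a fit of those groups alone (adjusted p = 0.0839). In fresh whole embryos SLC1A3 was 2.52-fold higher than in fresh TE (limma adjusted p = 0.000465). That call was lost after median-ratio scaling (1.30-fold, limma adjusted p = 0.203) and quantile normalization (-0.0088, limma adjusted p = 0.638). SLC1A4 (ASCT1), the serine and alanine exchanger, lies within a longer unnamed gene on the same strand, so its 524 reads may be shared with that gene. It was 0.0138 to 0.0649 RPKM in fresh TE and 0.0303 to 0.251 elsewhere, and was called higher in fresh whole embryos than in fresh TE (limma adjusted p = 0.0273) in deposited RPKM but on none of the other scales (adjusted p = 0.161, 0.375 and 0.887), nor without fresh TE 4 or fresh whole embryo 3 or 5 (0.093, 0.085 and 0.073, adjusted p = 0.0656 to 0.0690).

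The SLC38 family holds sodium-coupled carriers of glutamine and small neutral amino acids. SLC38A2 (SNAT2), whose messenger is known to rise when cells lack amino acids, lies on chromosome 5 at 34028553 to 34042997 (UMD3.1). Its RPKM was 0.807, 0.726, 0.829, 0.847 and 0.942 in fresh TE and 4.95 to 8.73 with a median of 6.66 in vitrified TE. Fresh whole embryos had 6.16 to 9.89 with a median of 8.22, and the vitrified whole embryos 6.0 and 6.69. Fresh TE was uniform and far below the other 15 samples, which overlapped one another. The mean was 7.92-fold higher in vitrified TE and 9.70-fold higher in fresh whole embryos than in fresh TE (limma adjusted p = 5.41e-11 and 6.71e-11), and 3.66- and 4.95-fold higher after median-ratio scaling. In whole embryos it was 1.27-fold lower after vitrification and not called (-0.28 ± 0.17 SE, limma adjusted p = 0.211), though it was called lower after median-ratio scaling (-0.56, adjusted p = 0.0379). The difference of the vitrification effects, -2.32 ± 0.21 SE (limma adjusted p = 3.57e-07), was the largest of the 27 transporters on the log2(RPKM + 1) scale, which makes differences of low genes small.

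SLC38A7, a glutamine carrier of the lysosome, had RPKM of 0.341, 0.613, 0.335, 0.494 and 0.367 in fresh TE, 0.849 to 1.72 with a median of 1.33 in vitrified TE, 0.525 to 0.965 with a median of 0.599 in fresh whole embryos, and 1.32 and 1.30 in the vitrified whole embryos. Both vitrified groups lay above the fresh samples of their kind. It was 3.12-fold higher with vitrification in TE (0.71 ± 0.09 SE, limma adjusted p = 7.02e-07, but 0.155 after quantile normalization) and 1.98-fold higher in whole embryos (0.48 ± 0.12 SE, limma adjusted p = 0.00587). The whole embryo call was not made after median-ratio scaling (0.28, adjusted p = 0.165) or quantile normalization (0.23, adjusted p = 0.279), nor without vitrified whole embryo 2 (0.49, adjusted p = 0.0642). The difference of the effects was -0.22 ± 0.15 SE (limma adjusted p = 0.267).

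SLC38A11, whose substrates are little known, had RPKM of 0.0411, 0.0241, 0.0254, 0.0249 and 0.0271 in fresh TE, 0.148 to 0.417 with a median of 0.298 in vitrified TE, 0.167 to 0.498 with a median of 0.310 in fresh whole embryos, and 0.353 and 0.289 in the vitrified whole embryos. Fresh TE was below all others. The mean was 9.74-fold higher in vitrified TE and 11.2-fold higher in fresh whole embryos (limma adjusted p = 4.38e-05 and 2.09e-05), and 4.48- and 5.66-fold higher after median-ratio scaling. SLC38A6, a less studied relative, had RPKM of 0.0949, 0.0595, 0.0455, 0.0530 and 0.0769 in fresh TE, 0.154 to 0.364 with a median of 0.220 in vitrified TE, 0.310 to 0.491 with a median of 0.367 in fresh whole embryos, and 0.465 and 0.362 in the vitrified whole embryos. Fresh TE lay below all others here too. SLC38A6 was 5.73-fold higher in fresh whole embryos than in fresh TE (0.37 ± 0.04 SE, limma adjusted p = 7.02e-07), and 3.90-fold higher in vitrified TE (limma adjusted p = 6.08e-05), though not called there after quantile normalization (0.06, adjusted p = 0.241). It was 1.61-fold higher in vitrified whole embryo than in vitrified TE (limma adjusted p = 0.0466), a call that the other 3 scales did not make (adjusted p = 0.112, 0.249 and 0.280) and that was lost without vitrified whole embryo 1 (0.12, adjusted p = 0.309) or 2 (0.22, adjusted p = 0.121), or without vitrified TE 3, 4, 5 or 7 (0.16, 0.15, 0.16 and 0.16, adjusted p = 0.0662 to 0.0738).

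SLC38A5 (SNAT5), a glutamine and glycine carrier, was 0 to 0.157 RPKM in fresh TE, 0.188 to 0.710 in vitrified TE, 0.300 to 0.646 in fresh whole embryos, and 0.629 and 0.317 in the vitrified whole embryos. It was called 5.11-fold higher in vitrified TE and 5.12-fold higher in fresh whole embryos than in fresh TE (limma adjusted p = 0.000795 and 0.00105), the former not after quantile normalization (adjusted p = 0.0877). SLC38A9, the lysosomal arginine sensor that signals to the growth kinase mTORC1, was 0.0160 to 0.0301 RPKM in fresh TE and 0.0302 to 0.103 in the other groups. The difference from fresh TE was called in fresh whole embryos (0.039, limma adjusted p = 0.0216), though on none of the other scales nor without fresh whole embryo 3 (0.034, adjusted p = 0.0515), and was not called in vitrified TE (0.029, limma adjusted p = 0.0624). Both differences turned negative after quantile normalization (-0.022 and -0.045). SLC38A10, a relative without a settled role, had 6 reads over the 5 fresh TE libraries and 108 over the 7 vitrified TE libraries, with RPKM of 0.00405, 0, 0, 0.0103 and 0.00749 against 0.0303 to 0.0629 with a median of 0.0367. Fresh whole embryos had 0.0107 to 0.0232 and the vitrified whole embryos 0.0356 and 0.0252. Vitrified TE was higher than fresh TE (0.057 ± 0.0076 SE, limma adjusted p = 1.85e-06).

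SLC36A2 (PAT2), a proton-coupled glycine and proline carrier, had 2 reads over the 5 fresh TE libraries, both in fresh TE 5 (0.0113 RPKM, the other 4 at 0). Its RPKM was 0.0142 to 0.0618 with a median of 0.0375 in vitrified TE, 0.0124 to 0.0649 with a median of 0.0317 in fresh whole embryos, and 0.130 and 0.0380 in the vitrified whole embryos. Pooled over libraries and divided by library reads, vitrified TE had 17.8 times the SLC36A2 reads of fresh TE, with an exact 95% interval for counting error of 4.74 to 150 (limma adjusted p = 0.00816). The ratio of means was 8.04-fold after median-ratio scaling, and the call was lost after quantile normalization (limma adjusted p = 0.115). The call in whole embryos, 2.48-fold higher after vitrification (limma adjusted p = 0.0324), was lost without vitrified whole embryo 1 (0.0059, adjusted p = 0.875), on the other 3 scales (adjusted p = 0.0501, 0.128 and 0.228), and without fresh whole embryo 2, 4 or 5 (0.064, 0.061 and 0.065, adjusted p = 0.0539, 0.0549 and 0.0515).

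In the SLC6 family the largest contrasts were those of genes scarcely read in fresh TE. SLC6A20 (SIT1), the carrier of proline and related imino acids, lies on chromosome 22 at 54136284 to 54195168 (UMD3.1). Its RPKM was 0.00825, 0.0113, 0.00433, 0.00233 and 0.00761 in fresh TE (13 reads in all), 0.323 to 0.592 with a median of 0.445 in vitrified TE, 0.0652 to 0.221 with a median of 0.101 in fresh whole embryos, and 0.635 and 0.569 in the vitrified whole embryos. Both vitrified groups lay above every fresh sample, whole embryo or TE. The mean was 62.3-fold higher in vitrified than in fresh TE (0.49 ± 0.04 SE, limma adjusted p = 8.12e-09) and 28.1-fold higher after median-ratio scaling. In whole embryos it was 4.85-fold higher after vitrification (0.51 ± 0.06 SE, limma adjusted p = 2.2e-05) and 3.92-fold higher after median-ratio scaling (adjusted p = 0.000216). Fresh whole embryos were 18.3-fold above fresh TE (limma adjusted p = 0.00493). The 1.43-fold higher mean in vitrified whole embryo than in vitrified TE (limma adjusted p = 0.0472) was not called on the other 3 scales (adjusted p = 0.131, 0.282 and 0.273), nor without vitrified whole embryo 1 (0.14, adjusted p = 0.229) or 2 (0.20, adjusted p = 0.155) or vitrified TE 3, 4, 5, 6 or 7 (0.16 to 0.18, adjusted p = 0.0506 to 0.0762). On the log2(RPKM + 1) scale the vitrification effects in whole embryo and TE differed by 0.02 ± 0.07 SE (95% interval -0.14 to 0.17, limma adjusted p = 0.880), whereas limma-voom on the reads, which has no such offset, gave -3.50 (adjusted p = 0.000234).

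SLC6A8, the creatine carrier, had 2 reads over the fresh TE libraries, with RPKM of 0, 0, 0.0174, 0.0188 and 0. It was 0.287 to 0.687 with a median of 0.461 in vitrified TE, 0.107 to 0.400 with a median of 0.228 in fresh whole embryos, and 0.325 and 0.382 in the vitrified whole embryos. Fresh TE was below all others. Pooled over libraries and divided by library reads, vitrified TE had 58.0 times the SLC6A8 reads of fresh TE (exact 95% interval for counting error 15.8 to 482, limma adjusted p = 1.15e-06), and fresh whole embryos had 30.3 times (8.19 to 253, limma adjusted p = 0.00173). SLC6A6, the taurine carrier, had 1 read in fresh TE, 62 in vitrified TE and 54 in fresh whole embryos, and by the same measure vitrified TE had 34.6 times the fresh TE value (exact 95% interval for counting error 5.98 to 1387, limma adjusted p = 0.00251).

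SLC6A11 (GAT3), which carries the transmitter GABA, was 0.00363 to 0.0156 RPKM in fresh TE (0.0144, 0.0135, 0.0155, 0.0156 and 0.00363), 0.00803 to 0.0273 with a median of 0.0224 in vitrified TE, 0.00798 to 0.0273 with a median of 0.0203 in fresh whole embryos, and 0.0154 and 0.0217 in the vitrified whole embryos. All groups overlapped. It was called higher in vitrified TE (0.013, limma adjusted p = 0.0429), a call lost without fresh TE 1, 2 or 5 or any vitrified TE sample but sample 2 (0.0094 to 0.013, adjusted p = 0.0540 to 0.139). The sign turned after median-ratio scaling (-0.0065) and quantile normalization (-0.036). SLC6A15, a carrier of branched-chain amino acids and proline, had 73 reads over all libraries and 10 or more only in fresh whole embryos. SLC6A15 passed the filter through that group alone, so its higher place there was fixed in part by the filter. It was called higher there than in fresh TE (0.017, limma adjusted p = 0.0368), but on none of the other 3 scales (adjusted p = 0.132, 0.274 and 0.481), nor without fresh TE 1, 2, 3 or 4 or fresh whole embryo 3, 4 or 6 (0.014 to 0.017, adjusted p = 0.0593 to 0.0901).

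**Figure D4:**
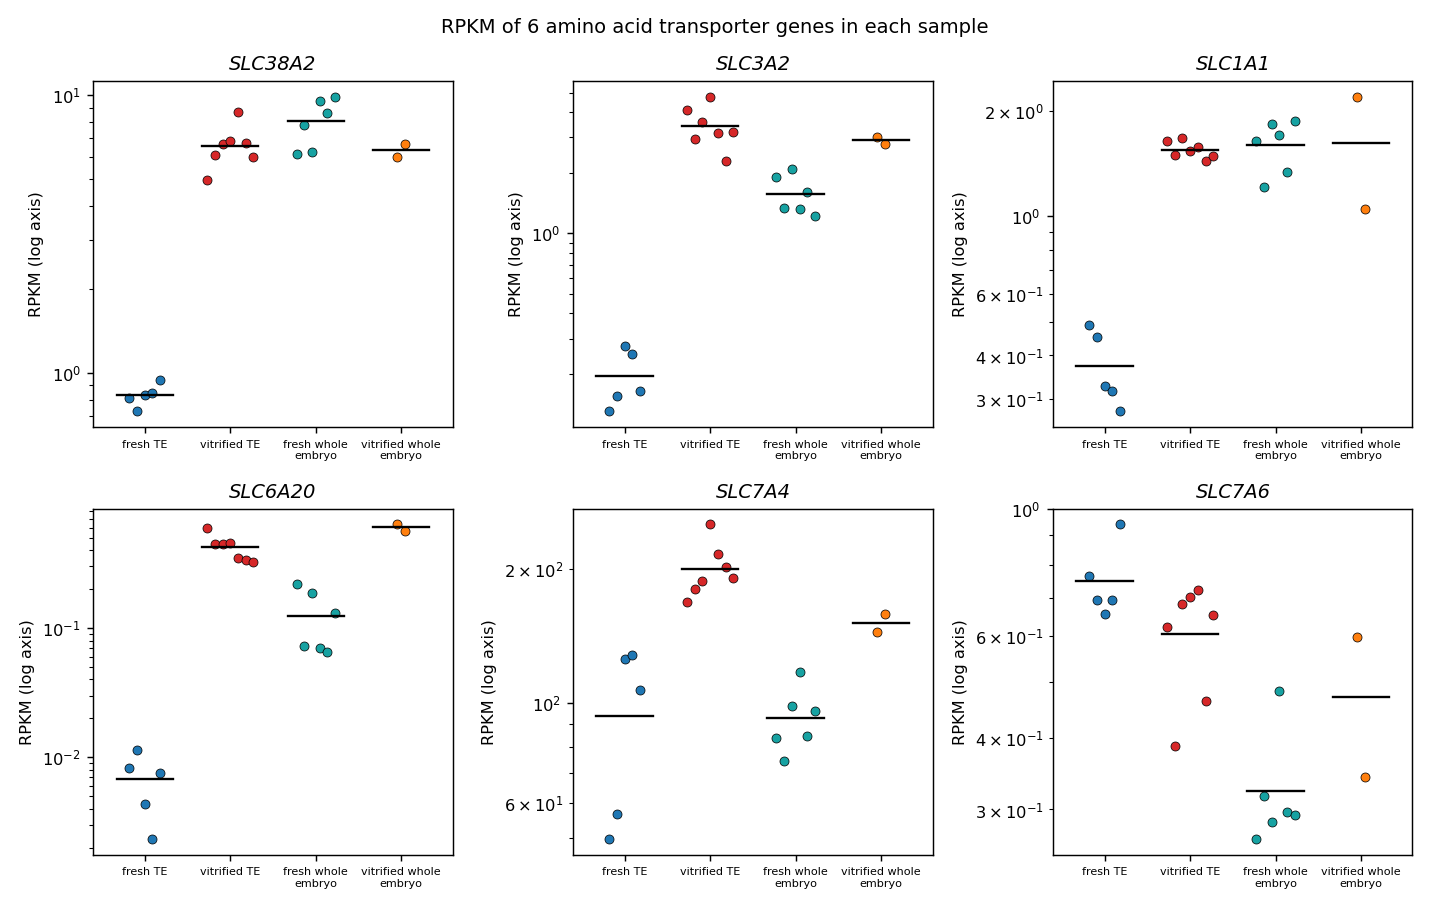
RPKM (log axis) of 6 transporter genes in each sample (points) of the 4 groups (x axis), with bars at the group means. SLC38A2, SLC3A2, SLC1A1 and SLC6A20 are lowest in fresh TE, SLC7A4 is highest in vitrified TE at 169 to 251, and SLC7A6 is higher in fresh TE than in fresh whole embryos.

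**Figure D5:**
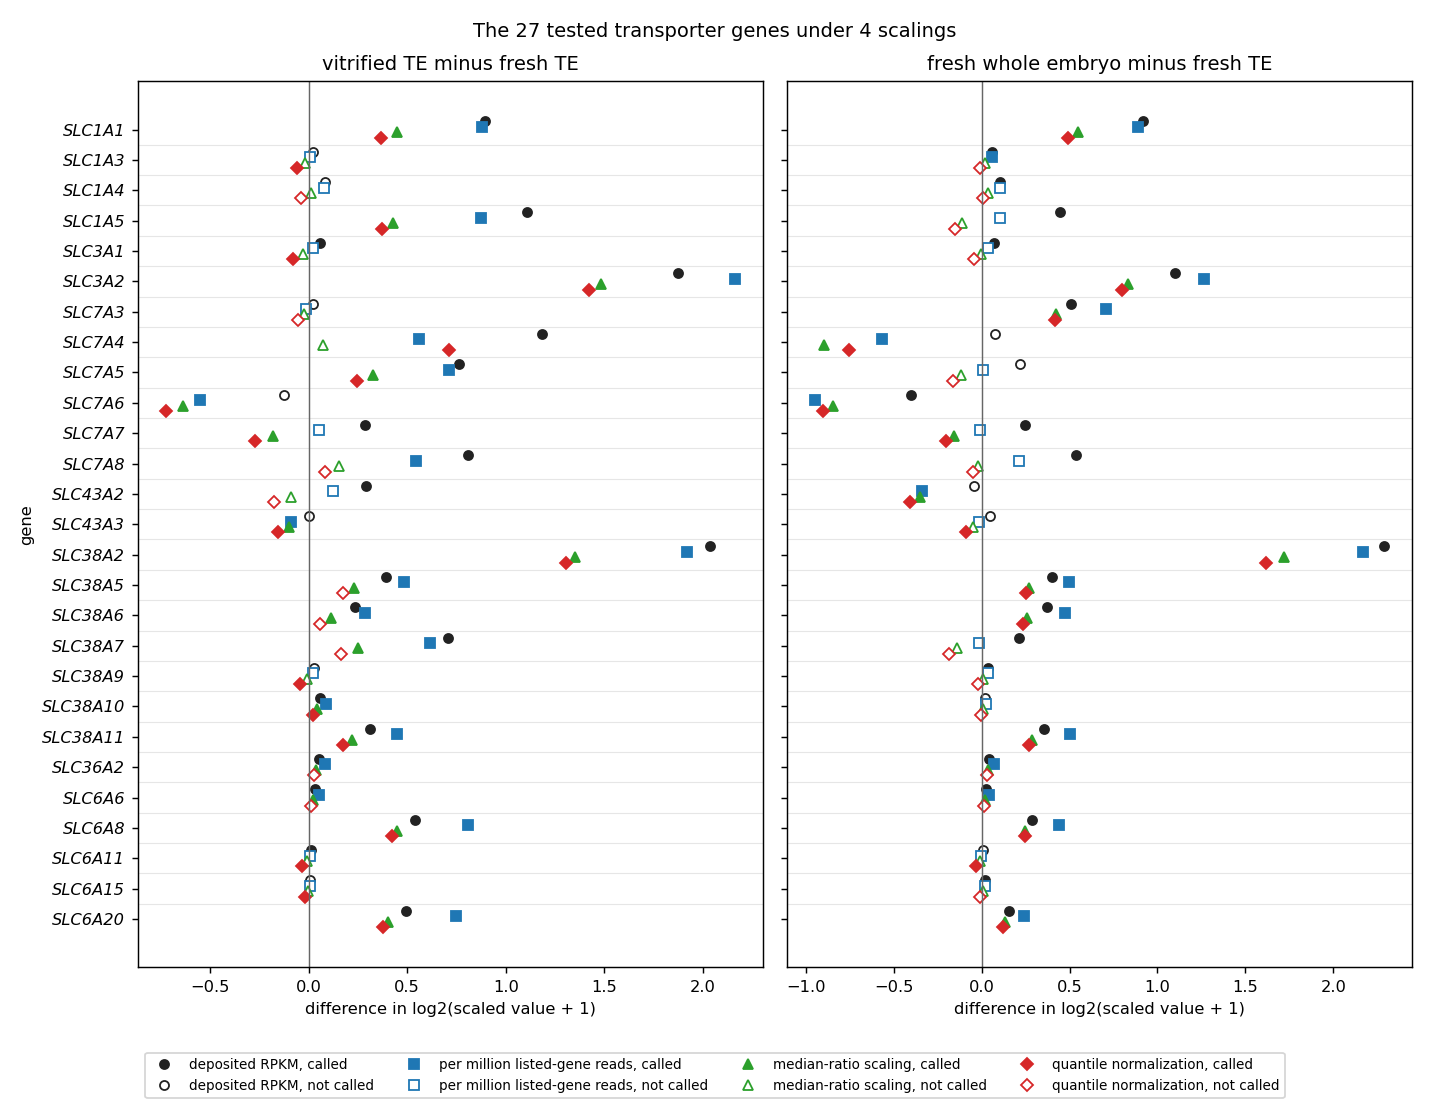
Differences in log2(scaled value + 1) of the 27 transporter genes (y axis) for vitrified minus fresh TE (left) and fresh whole embryo minus fresh TE (right) under 4 scalings (shapes and colours), with filled symbols where the limma adjusted p is under 0.05. Symbols shift left from deposited RPKM to quantile normalization for most genes, and SLC38A2, SLC3A2 and SLC1A1 stay to the right of 0 under each scaling while SLC7A7 crosses it.

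By groups that do not overlap in RPKM, 18 of the 27 transporters were higher in vitrified than in fresh TE and 0 lower (54.6% and 3.96% of all genes), and 15 were higher in fresh whole embryos than in fresh TE (48.4%). Both counts hold SLC6A6, SLC6A8, SLC6A20, SLC36A2 and SLC38A10, which entered the test through groups other than fresh TE. In vitrified whole embryos 6 lay above all fresh whole embryos (29.4%) and 1, SLC43A2, lay below (6.54%). Against vitrified TE, 6 transporters lay lower in both vitrified whole embryos than in all 7 TE samples, SLC1A5, SLC3A1, SLC7A4, SLC7A5, SLC7A8 and SLC43A2, where 5.94% of all genes did, and 0 lay higher (20.4%).

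Enzymes and sensors that handle the transported amino acids were counted from 8 lists. Of the enzymes that make serine and glycine and pass on their one-carbon units, 10 of 12 were called higher and 0 lower between vitrified and fresh TE, and 6 and 0 after quantile normalization. Of all genes tested, 69% were higher and 6.66% lower, and 26.2% and 38.7% after quantile normalization. In fresh whole embryos against fresh TE the counts were also 10 and 0, and 6 and 0, where 60% of all genes were higher and 5.97% lower, and 23.6% and 34.7% after quantile normalization. SHMT2, the mitochondrial enzyme that converts serine to glycine, was 1.20 to 1.80 RPKM in fresh TE, 15.3 to 21.3 in vitrified TE, 6.70 to 9.58 in fresh whole embryos, and 15.8 and 23.8 in the vitrified whole embryos. It was called higher with vitrification in TE (difference 2.91) and in whole embryos (1.15) under all 4 scales. MTHFD2, the next mitochondrial one-carbon enzyme, was 0.214 to 0.246 RPKM in fresh TE, 2.30 to 3.73 in vitrified TE and 2.35 to 5.18 in fresh whole embryos, and AMT, a part of the glycine cleavage system, was 0.577 to 0.864, 2.81 to 4.47 and 1.14 to 2.22.

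Among genes of the response to amino acid shortage, 9 of 13 were called higher in vitrified TE and 2 lower, against 69% and 6.66% of all genes. After quantile normalization 3 were higher and 6 lower, against 26.2% and 38.7% of all genes. DDIT3, a stress-induced transcription factor, was 3.56 to 4.94 RPKM in fresh TE, 24.3 to 38.6 in vitrified TE, 10.9 to 22.5 in fresh whole embryos, and 22.4 and 31.8 in the vitrified whole embryos. CTH, which makes cysteine, was 0.127 to 0.233 in fresh TE and 0.730 to 1.02 in vitrified TE, and XPOT, which exports transfer RNA from the nucleus, was 0.0493 to 0.141 and 0.330 to 0.652. Of 34 tested genes of amino acid sensing by mTORC1, 26 were higher and 0 lower, but 9 higher and 13 lower after quantile normalization, also to be read against those shares. EIF4EBP1, the translation repressor that mTORC1 inactivates, was 0.0148 to 0.0566 RPKM in fresh TE, 6.02 to 8.71 in vitrified TE, 0.0602 to 4.86 in fresh whole embryos, and 6.40 and 7.60 in the vitrified whole embryos. It was called higher with vitrification in TE and in whole embryos (limma). RRAGA, a GTPase of the lysosomal sensor, was 14.2 to 18.4 in fresh TE and 33.1 to 44.7 in vitrified TE (not called after median-ratio scaling, limma adjusted p = 0.182), and MLST8, a subunit of the kinase complex, was 0.294 to 0.728 and 2.25 to 4.08.

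The other lists gave 7 of 12 genes higher and 1 lower in vitrified TE for glutamine and glutamate metabolism, 7 of 9 and 1 for glutathione synthesis, 8 of 13 and 1 for branched-chain amino acid breakdown, 9 of 11 and 2 for arginine and proline metabolism, and 9 of 13 and 2 for other amino acid and peptide carriers. After quantile normalization these became 2 and 7, 2 and 1, 3 and 5, 3 and 4, and 3 and 5. With 69% of all genes higher and 6.66% lower, and 26.2% and 38.7% after quantile normalization, nothing particular to these lists is read from the counts. Genes that stayed higher on all scales included CAD, which starts pyrimidine synthesis from glutamine, at 0.223 to 0.346 RPKM in fresh TE and 1.30 to 1.80 in vitrified TE. ODC1, which makes putrescine from ornithine, was 8.28 to 14.8 and 56.8 to 78.2, and OAT, which links ornithine to proline and glutamate, was 1.04 to 2.10 and 7.70 to 9.55. BCKDK, the kinase that restrains branched-chain amino acid breakdown, was 0.269 to 1.27 and 3.38 to 4.21, and BCAT1, which starts that breakdown, was 0.0552 to 0.0994 and 0.259 to 0.396. The mitochondrial carriers SLC25A22, for glutamate, and SLC25A29, for basic amino acids, were 0.110 to 0.831 against 1.46 to 2.40 and 0.113 to 0.239 against 0.502 to 0.861. In contrast, the arginase ARG2 (0.528 to 0.810 in fresh TE, 1.60 to 2.0 in vitrified TE) and the glutathione genes GSS (0.0830 to 0.191, 0.245 to 0.403) and OPLAH (0.128 to 0.358, 0.425 to 0.817) were higher in deposited RPKM but not called after median-ratio scaling (limma adjusted p = 0.148, 0.982 and 0.344). The same held for CTPS1, which makes CTP with glutamine nitrogen (0.457 to 0.774, 1.22 to 1.68, limma adjusted p = 0.838). GOT2, the mitochondrial aspartate aminotransferase (1.12 to 1.55, 2.94 to 3.98), IVD of leucine breakdown (0.371 to 0.70, 1.30 to 1.94) and the lysosomal cystine carrier CTNS (0.408 to 0.560, 1.15 to 1.74) lost their calls after quantile normalization (limma adjusted p = 0.120, 0.112 and 0.0852). GCLC, the catalytic subunit of the first enzyme of glutathione synthesis, was 0 to 0.00757 RPKM in fresh TE and 0.0220 to 0.0557 in vitrified TE and was called higher on all 4 scales.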

How the data were processed

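RNA sequencing of 20 day 14 samples was analysed from 1 deposited table of RPKM values per gene and sample. Per the submitters' processing notes, FastQC, STAR 2.5.3a, Partek and the build UMD3.1 were used. What each tool did, the filters and the annotation are not stated in those notes. The authors' RPKM appeared, from the values alone, to carry a constant of 0.01, which was subtracted. Read numbers were recovered from the steps of the values over the gene's span with introns, a length also inferred from the values, and 94.4 to 95.8% of the low values (up to 1000 reads) were whole to within 0.1 reads; genes with 10 or more such reads in 2 or more libraries were tested. limma 3.58.1 (R 4.3.3, trend and robust settings) was fitted to log2(RPKM + 1) of 10599 genes over all 20 samples, with 4 group means, and p-values were adjusted by Benjamini-Hochberg over all genes at a threshold of 0.05. This pseudocount makes log2 differences of low genes small, so ratios of group means are given too. Intervals of read ratios cover counting error only, and the interval of a log2 difference is limma's and covers the spread between samples.

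Alternatives were scaling to the reads in listed genes, median-ratio and quantile scaling, a pseudocount of 0.1, no filter, limma-voom, fits on the compared groups alone, averaging of the near-identical libraries, a replicate block and leaving out each sample; leaving out fresh TE 1 and 2 together was added after seeing the data. Ratios within a library were compared by exact permutation; a planned ratio with SLC38A1 is not analysed here, which leaves 4 tests. The transporters, gene lists and tests were chosen with earlier results of these data known. Genes with values in each sample were the up to 8 with the smallest adjusted p in each comparison and the 2 with the most reads in each family, and the remaining members were added after their values were seen. Up to 3 genes per list had the smallest p for vitrified against fresh TE. Of 8 lists, genes with too few reads were left out. Sequences were not used here.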

Additional observations from a re-analysis of the deposited data

Results flagged for a closer look

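The vitrification effect was called different between whole embryo and TE (whole embryo minus TE, log2(RPKM + 1), limma interaction term) for 15 transporters. On the same term 28.4% of all genes were called lower and 3.98% higher. Of the 15, 6 were called under all 4 scales, and SLC7A7 turned positive after median-ratio and quantile scaling. The differences were -2.32 for SLC38A2, -1.27 for SLC3A2, -1.25 for SLC7A8, -1.08 for SLC1A5, -0.91 for SLC1A1, -0.58 for SLC7A5, -0.47 for SLC43A2, -0.40 for SLC6A8, -0.31 for SLC7A7, -0.30 for SLC38A11, -0.20 for SLC38A6, -0.14 for SLC3A1, -0.078 for SLC1A3, -0.041 for SLC6A6 and -0.037 for SLC38A10.

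In 81 sets of values, 1 for each of the 27 transporters in each of the 3 groups with more than 3 samples, 10 samples stood apart from the rest of their group, against the nominal 1 in 20 sets that the 95% critical value marks by chance. That rate was not tested here, and sets of mostly 0s need not follow it. Low samples were vitrified TE 6 for SLC1A3 (0.0217 RPKM, others 0.0431 to 0.0568), fresh TE 5 for SLC6A11 (0.00363, 3 reads) and vitrified TE 2 for SLC6A11 (0.00803, 9 reads). High samples were fresh TE 1 for SLC38A11 (0.0411, 14 reads), fresh TE 3 for SLC43A3 (0.118, 17 reads), fresh TE 5 for SLC36A2 (0.0113, 2 reads), fresh TE 3 for SLC6A6 (0.00273, 1 read), vitrified TE 4 for SLC6A6 (0.0511, 19 reads), vitrified TE 5 for SLC7A3 (0.370, 18 reads) and fresh whole embryo 4 for SLC7A6 (0.482, 90 reads, others 0.267 to 0.317).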

How the results depend on the processing

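Counts of transporters higher and lower moved with scaling and with the samples fitted. The 16 and 2, 14 and 3, and 10 and 8 for vitrified against fresh TE, and the 12 and 3, 11 and 4, and 9 and 6 for fresh whole embryo against fresh TE, stand in the report. For vitrified against fresh whole embryo they were 3 and 1 with listed-gene scaling, 1 and 3 after median-ratio scaling and 2 and 2 after quantile normalization, and the lower count was 1 with limma-voom, averaged near-identical libraries or no filter and 0 with only the groups compared. For vitrified whole embryo against vitrified TE, the higher count was 0 under each of these, with a pseudocount of 0.1 and under the 3 scalings, and the lower count 0 with only the groups compared. For the difference of effects they were 1 and 8, 1 and 7, and 1 and 6, with 1 positive by limma-voom. Without fresh TE 1 and 2, fresh whole embryo against fresh TE had 14 higher and 2 lower (5523 and 586 of 10599 genes). Vitrified against fresh TE then had 19 and 0 (6617 and 685 genes), and the difference of effects 0 positive and 10 negative (365 and 2411 genes). With the near-identical libraries averaged, these counts were 15 and 1, 18 and 0, and 0 and 12. Over all genes they were 5607 and 512, 6697 and 616, and 334 and 2478. Leaving out each sample gave 19 to 21 higher in vitrified against fresh TE (7020 to 7291 of all genes). It gave 16 to 20 higher in fresh whole embryos against fresh TE (5977 to 6317 of all genes). The calls in comparisons with vitrified whole embryos and in the difference of effects moved as well. There, leaving out 1 vitrified whole embryo leaves 1 sample in that group. The cause of these shifts was not tested.

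The replicate block treated equal replicate numbers as pairs, which the labels do not say they are. The deviations of same-numbered samples from their group means had correlations of -0.19 to 0.31, most of them negative. Only 1 pair, vitrified whole embryo 1 and vitrified TE 1, correlated best with its own number. With the block, vitrified whole embryo against vitrified TE had 0 higher and 1 lower. The SLC7A5 to SLC3A2 log2 ratio differed by -2.38 for vitrified TE and -2.36 for fresh whole embryos, with an exact sign-flip p of 0.0625, the smallest 5 pairs allow.

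Sign changes are listed where the difference was called on at least 1 of the scales compared, and other differences called on neither also changed sign. Against fresh TE they were, for vitrified TE after median-ratio scaling, -0.027 for SLC3A1, -0.090 for SLC43A2, -0.10 for SLC43A3, -0.0065 for SLC6A11 and -0.18 for SLC7A7, and with listed-gene scaling -0.089 for SLC43A3. After quantile normalization they were -0.057 for SLC1A3, -0.081 for SLC3A1, -0.18 for SLC43A2, -0.16 for SLC43A3, -0.036 for SLC6A11, -0.27 for SLC7A7, -0.045 for SLC38A9 and -0.020 for SLC6A15. For fresh whole embryos after median-ratio scaling they were -0.11 for SLC1A5, -0.14 for SLC38A7, -0.0050 for SLC3A1, -0.89 for SLC7A4, -0.16 for SLC7A7 and -0.019 for SLC7A8, and with listed-gene scaling -0.014 for SLC38A7, -0.57 for SLC7A4 and -0.0078 for SLC7A7. After quantile normalization they were -0.0088 for SLC1A3, -0.15 for SLC1A5, -0.18 for SLC38A7, -0.042 for SLC3A1, -0.091 for SLC43A3, -0.032 for SLC6A11, -0.75 for SLC7A4, -0.20 for SLC7A7, -0.050 for SLC7A8, -0.022 for SLC38A9 and -0.0068 for SLC6A15, and without fresh TE 1 and 2 -0.39 for SLC7A4. The difference of effects turned to 0.031 and 0.082 for SLC7A7 after median-ratio and quantile scaling, and to -2.24 for SLC36A2 and -3.50 for SLC6A20 with limma-voom.

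Depth limits the genes with few fresh TE reads, and the 2 vitrified whole embryos limit every comparison that uses them.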
